A study of Homo sapiens with 18 samples.

Results

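Chromatin accessibility was examined around 10 genes of the BCL2 family in cell lines of head and neck squamous cell carcinoma (HNSCC). The genes were BCL2, BCL2L1, MCL1 and BCL2A1, which restrain cell death, BCL2L11, BMF, BBC3, PMAIP1 and BIK, which carry only a BH3 domain and promote it, and the effector BAX. A region was taken as a member when it overlapped the body of 1 of these genes extended by 20 kb on each side, by position alone, and 63 of the 115087 regions of the deposited table did. BCL2L1 held 15 members, BMF 12, BCL2L11 8, BCL2, MCL1, BBC3 and BIK 5 each, and PMAIP1 and BAX 4 each. No region of the table lay within 20 kb of BCL2A1 (chr15:80253234-80263538, GRCh37), so that gene has no value here.

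The established HNSCC cell lines SCC1, SCC6 and SCC25, all described by the study as sensitive to cetuximab, were each treated daily with cetuximab at 100 nM or with PBS (untreated) for 5 days. Cetuximab is an antibody that blocks the epidermal growth factor receptor (EGFR). In ATAC-seq, the assay used, a transposase (Tn5) cuts DNA where chromatin is open, and the signal of a region is its number of reads scaled between libraries by the authors. There were 3 libraries for each line and treatment except SCC1 with PBS, which had 2 with values (replicates 1 and 3), and since nothing states that replicates came from separate cultures, p-values measure only the spread between these libraries.

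BCL2 family proteins decide whether the outer membrane of the mitochondrion is breached. BCL2, BCL2L1 (BCL-XL) and MCL1 hold BAX in check, and BH3-only proteins such as BCL2L11 (BIM), BMF, BBC3 (PUMA), PMAIP1 (NOXA) and BIK bind and occupy these guardians. In epithelial tumours driven by EGFR, the level of BIM is kept low by ERK signalling and can be raised by FOXO factors when the receptor is blocked.

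The libraries held between 2194851 and 15017130 reads in regions, with the lowest number in SCC1 cetuximab replicate 2 and the highest in SCC6 cetuximab replicate 3. Promoter regions of all 6 squamous markers examined were in the table, although KRT14 and DSG3 had mean signals of 1.74 and 0.983 in SCC6, near the level of 1 read. Of 8 markers of other cell types only COL1A1 had a promoter region in the table. Its mean signals were 137, 122 and 142 in SCC1, SCC6 and SCC25, higher in each line than those of the squamous markers other than EGFR. Members were wider, richer in GC and higher in signal than the table at large, with a median width of 296 bases against 258, a median GC content of 58.1% against 45.9% and a median signal of 38.7 against 22.4. Of the 63 members, 14 lay within 1 kb of a start site of their own gene, 6 lay at the start of a neighbour (KDSR, TPX2, ADAMTSL4, MCAT, FTL and GYS1), and 20 lay in introns. Regions are named below by gene and by the distance of their midpoint from its start site. The distance is positive in the direction of transcription, so a positive region can lie past the end of the gene. No region lay within 1 kb of any start site of BIK, and the strongest promoter region of BBC3 was at an internal start site, at +4.9 kb.

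The sequences of 6 regions are shown because these are the members whose change in SCC6 passed the test under each alternative setting that tested them. They are written on the strand of the gene, 5′ to 3′, from the GRCh37 genome, and capitals mark matches on either strand to the forkhead motif GTAAACA (complement TGTTTAC), the AP-1 motif TGANTCA and the TFAP2 motif GCCNNNGGC. The first and second lie in introns of BCL2L11, within the overlapping RNA gene MIR4435-2HG, at chr2:111913260-111913551 and chr2:111918401-111918656 (plus strand), the third is the central 300 bases of a region in an intron of BCL2L1 at chr20:30298479-30298778 (minus strand), and the fourth covers part of exon 3 of BIK at chr22:43523547-43523779 (plus strand). The last pair are the central 300 bases of intronic regions of BCL2L1 at chr20:30266399-30266698 and of BMF at chr15:40391046-40391345 (both minus strand).
BCL2L11 +34.9 kb: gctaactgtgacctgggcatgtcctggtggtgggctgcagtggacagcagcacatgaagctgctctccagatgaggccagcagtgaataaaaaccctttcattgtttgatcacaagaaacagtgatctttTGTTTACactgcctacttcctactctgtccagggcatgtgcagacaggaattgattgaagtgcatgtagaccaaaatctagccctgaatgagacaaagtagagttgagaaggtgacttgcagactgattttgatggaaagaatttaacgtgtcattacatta
BCL2L11 +40.0 kb: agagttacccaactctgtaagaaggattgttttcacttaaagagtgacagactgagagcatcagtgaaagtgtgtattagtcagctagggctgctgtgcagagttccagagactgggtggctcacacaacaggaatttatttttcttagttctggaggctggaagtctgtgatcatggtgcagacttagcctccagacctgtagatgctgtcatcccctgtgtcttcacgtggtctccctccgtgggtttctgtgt
BCL2L1 +12.0 kb: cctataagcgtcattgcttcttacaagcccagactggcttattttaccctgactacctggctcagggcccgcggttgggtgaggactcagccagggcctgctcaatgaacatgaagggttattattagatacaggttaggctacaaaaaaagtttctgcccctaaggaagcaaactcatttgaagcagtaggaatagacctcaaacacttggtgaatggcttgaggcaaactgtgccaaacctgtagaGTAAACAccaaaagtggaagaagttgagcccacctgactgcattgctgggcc
BIK +16.9 kb: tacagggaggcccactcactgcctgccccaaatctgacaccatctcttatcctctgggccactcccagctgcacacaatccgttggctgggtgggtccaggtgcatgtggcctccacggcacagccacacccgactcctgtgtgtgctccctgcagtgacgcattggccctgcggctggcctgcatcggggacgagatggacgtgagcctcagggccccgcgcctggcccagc
BCL2L1 +44.1 kb: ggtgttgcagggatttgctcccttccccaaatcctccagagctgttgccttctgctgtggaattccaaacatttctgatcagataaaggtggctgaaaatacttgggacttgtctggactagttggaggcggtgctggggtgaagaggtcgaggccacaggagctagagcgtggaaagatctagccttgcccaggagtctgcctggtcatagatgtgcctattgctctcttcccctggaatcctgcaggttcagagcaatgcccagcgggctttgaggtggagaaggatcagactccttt
BMF +9.9 kb: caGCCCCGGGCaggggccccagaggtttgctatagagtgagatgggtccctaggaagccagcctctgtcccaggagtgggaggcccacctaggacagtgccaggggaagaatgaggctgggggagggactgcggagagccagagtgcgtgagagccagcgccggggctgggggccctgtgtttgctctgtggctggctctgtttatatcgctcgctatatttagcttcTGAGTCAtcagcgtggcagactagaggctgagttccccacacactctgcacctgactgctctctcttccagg
Of these 6 sequences, 2 held the forkhead motif, 1 held both the AP-1 and the TFAP2 motif and 3 held none of them. The forkhead motif was present in 5 of the 63 members within the 300 bases around their midpoints (7.94%), against 7.5% of all regions. The AP-1 motif was present in 11 members (17.5%) against 31.4% of all regions, and the TFAP2 motif in 23 members (36.5%) against 11.8%. Every fixed letter of the TFAP2 motif is G or C, and members had a median GC content of 58.1% against 45.9%. The shares were not matched for GC content or promoters, and whether these account for the differences was not tested. All motifs were searched on both strands, and a match describes the letters only.

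After 5 days of cetuximab the members changed in SCC1 and SCC6 and not detectably in SCC25, and only PMAIP1 +4.9 kb was called in both of the first 2 lines. In SCC1, 9 of 61 tested members rose (14.8%, against 4.57% of all tested regions) and 1 fell (1.64%, against 6.56%). The count of 9 rested on single libraries: it became 2, 12 and 5 with SCC1 cetuximab replicate 1, 2 or 3 left out, and 1 and 4 with PBS replicate 1 or 3 left out. The 9 were at BAX, MCL1, BMF and BBC3. Of the 20 tested members that were promoter regions 6 rose and 0 fell, beside 12.6% and 2.12% of all promoter regions in this line. In SCC6, 8 of 60 members rose (13.3%, against 16.9%) and 5 fell (8.33%, against 10.6%), so the share called was near the background. Without SCC6 cetuximab replicate 2 the higher members were 5, and the lower ones were 2 without cetuximab replicate 1 and 3 without any 1 PBS library. Those that rose lay mainly in introns and flanks of BCL2L1, BCL2L11 and BMF. Of the 20 tested members that were promoter regions 1 rose and 1 fell, beside 5.65% and 10.9% of all promoter regions.

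In SCC25 the limma fit called no member, against 0.0405% of all regions that rose and 0.275% that fell, and against 0.024% and 0.042% of promoter regions. Only BMF +39.5 kb and BBC3 +4.9 kb, 2 members, had an unadjusted p under 0.05, and edgeR and DESeq2 on recovered reads also called 0. In SCC1, SCC6 and SCC25 the members had median log2 changes of 0.263, 0.008 and -0.016, beside -0.091, 0.114 and -0.083 over all tested regions. The choice of scaling moved these counts in SCC6: the 8 higher and 5 lower members became 6 and 13 when libraries were centred on their medians, 7 and 9 under quantile normalization or cyclic loess, 8 and 10 with edgeR, 6 and 7 with DESeq2, and 9 and 1 when each library's trend with GC content was removed. In SCC1 removing that trend left 2 higher members, BAX +24.2 kb and MCL1 +11.3 kb. The change of a region followed its GC content with Spearman's rho of 0.173 in SCC1 (86321 regions). It was -0.346 in SCC6 and 0.154 in SCC25 (86315 regions each), a description across regions that share libraries.

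**Figure D1:**
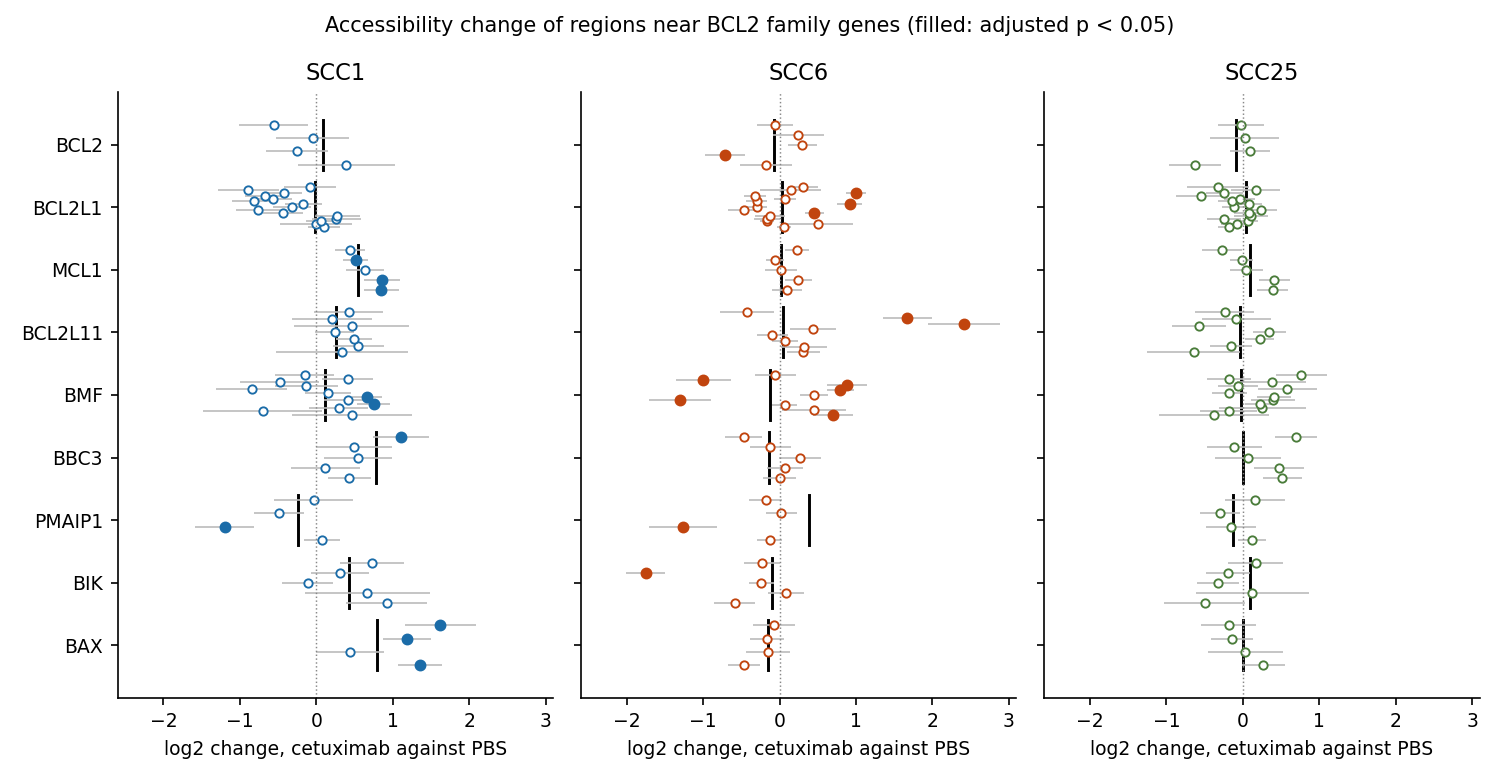
Log2 change of signal, cetuximab against PBS, for each tested member (points, with standard errors as grey lines), by gene (rows) and cell line (panels). Filled points have an adjusted p under 0.05, and the black bar in each row is the median change of other tested regions within 1 Mb of the gene's window. In SCC1 the bars of BAX and BBC3 stand at 0.79 and 0.78, while in SCC6 the filled points of BCL2L11, BMF and BIK lie far from their bars.

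Among the guardians, MCL1 had 3 of its 5 members called higher in SCC1, where 4.57% of all tested regions and 12.6% of promoter regions rose. MCL1 is a short-lived inhibitor of cell death that neutralises BIM and NOXA. Its promoter region, MCL1 -0.1 kb, read 111 and 71.5 in the PBS libraries and 182, 130 and 177 in the cetuximab libraries of SCC1. The groups did not overlap, and the change was 0.85 on the log2 scale (SE 0.232, adjusted p = 0.00592). MCL1 +11.3 kb, an intronic region, rose by 0.86 (SE 0.232, adjusted p = 0.00543), from 89.7 ± 18.4 (SD, n = 2) to 166 ± 42.7 (SD, n = 3). It counts as intronic by the annotated span of the gene over all its transcripts, 18.8 kb.

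MCL1 +18.2 kb rose by 0.51 (adjusted p = 0.0227), and +17.4 kb and +27.2 kb had changes of 0.64 and 0.44 that missed the threshold (adjusted p = 0.0768 and 0.136). The 65 tested regions within 1 Mb on either side had a median change of 0.54 in that line, and 89.2% of them were positive, so the MCL1 members stood within a segment with the same direction. Without SCC1 cetuximab replicate 1 the promoter change had an adjusted p of 0.0716, and without SCC1 PBS replicate 3 it was 0.54 (0.366). The call at +11.3 kb was lost without cetuximab replicate 1 (0.114) and PBS replicate 1 (0.289), and that at +18.2 kb without cetuximab replicate 1 (0.205), PBS replicate 1 (0.0714) or PBS replicate 3 (0.32, 0.501). With the GC trend removed, the promoter had a change of 0.54 (0.313) and +18.2 kb one of 0.24 (0.525). In SCC6 and SCC25 the changes of the MCL1 promoter region were 0.10 and 0.39 (adjusted p = 0.724 and 0.416).

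BCL2L1 encodes BCL-XL, a guardian much used by epithelial cells, and it held the most members. Its promoter region, BCL2L1 -0.8 kb, was the strongest member of the family, with a mean signal of 257 over the 17 libraries. It did not pass the test in any line: the changes were 0.07 in SCC1 (95% interval -0.33 to 0.46), -0.16 in SCC6 (-0.34 to 0.01) and 0.06 in SCC25 (-0.20 to 0.33). In SCC6 the value was -0.34 (adjusted p = 0.0055) once libraries were centred on their medians. With the GC trend removed it was 0.14 (0.419), so the sign of this value depends on the scaling.

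BCL2L1 +44.1 kb, an intronic region, read 106, 110 and 119 in SCC6 with PBS and 218, 223 and 233 with cetuximab. Every treated library was thus well above every untreated one, and the change was 1.00 (SE 0.129, adjusted p = 3.22e-08). BCL2L1 +12.0 kb, the third sequence above, read 85.8, 66.9 and 83.7 with PBS and 127, 161 and 161 with cetuximab, a change of 0.92 (SE 0.162, adjusted p = 1.82e-05). BCL2L1 +3.4 kb, at an internal start site, rose by 0.46 (SE 0.128, adjusted p = 0.00575), but this call was lost without SCC6 cetuximab replicate 2 (0.11) and with libraries centred on their medians (0.28, 0.104). The 81 tested neighbours of the locus within 1 Mb had a median change of 0.03 in SCC6.

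These intronic regions did not pass the test in the other lines. BCL2L1 +44.1 kb changed by -0.43 in SCC1 (adjusted p = 0.267) and by -0.24 in SCC25 (0.712), and the difference between the effects was tested: SCC6 minus SCC1 was 1.43 (adjusted p = 0.008) and SCC25 minus SCC6 was -1.24 (0.0227). For BCL2L1 +12.0 kb these differences were 1.09 (0.00808) and -0.83 (0.0488). Across lines, the only BCL2L1 members called in the fit over all 3 lines were lower ones. BCL2L1 +26.6 kb fell by 0.51 on the log2 scale (adjusted p = 0.0212) and +18.2 kb fell by 0.39 (0.0416), with the same sign in each line. The latter call was lost with libraries centred on their medians (0.0604), quantile normalization (0.0774) or the GC trend removed (0.0853). In the fit over all lines 2 of 61 members rose (3.28%, against 5.14%) and 3 fell (4.92%, against 7.04%). The call at +26.6 kb was lost without SCC1 PBS replicate 3 (0.0583) and without SCC6 PBS replicate 3 (0.051), and that at +18.2 kb without any 1 of 12 libraries (0.052 to 0.108), these being all but SCC1 cetuximab replicate 1, SCC6 PBS replicate 1, SCC25 PBS replicate 2 and SCC25 cetuximab replicates 2 and 3.

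BCL2, the founding guardian of the family, had its promoter region at -0.5 kb. In SCC6 it read 54.4, 38.1 and 68.5 with PBS and 29.3, 39.9 and 26.4 with cetuximab, so the groups overlapped at 1 library. The region fell by 0.72 on the log2 scale (SE 0.261, adjusted p = 0.0352), a call that was lost without SCC6 cetuximab replicate 1 (0.0797), cetuximab replicate 3 (0.0897), PBS replicate 1 (0.0897) or PBS replicate 3 (0.209) and with the GC trend removed (-0.37, 0.444). The changes were -0.25 in SCC1 and 0.09 in SCC25 (adjusted p = 0.766 and 0.914).

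BCL2L11, which encodes BIM, held the largest rise called in any line, away from its promoter. Its promoter region, BCL2L11 -0.2 kb, read 101 and 97.1 with PBS in SCC1 and 192, 83.7 and 172 with cetuximab. The treated library at 83.7, replicate 2, lay below both untreated ones and is also the shallowest of all. The change was 0.50 (95% interval 0.03 to 0.96, adjusted p = 0.176), 0.86 (0.00166) without that library, and 0.03 (0.968) with the GC trend removed. With all libraries kept it passed the threshold when they were centred on their medians (0.68, 0.0369) and in edgeR (0.67, 0.0289). The promoter region changed by 0.07 in SCC6 (-0.27 to 0.41, adjusted p = 0.773) and by 0.22 in SCC25 (-0.16 to 0.60, 0.646).

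Inside BCL2L11 the picture in SCC6 was different. BCL2L11 +34.9 kb, which holds the forkhead motif in the first sequence, read 3.62, 8.03 and 2.18 with PBS and 18.2, 28.8 and 34.1 with cetuximab. Every treated library lay above every untreated one, and the change was 2.41 (SE 0.472, adjusted p = 8.66e-05). BCL2L11 +40.0 kb, about 5 kb further on, read 14.5, 8.03 and 21.8 with PBS and 37.4, 48.3 and 53.6 with cetuximab, a change of 1.67 (SE 0.319, adjusted p = 6.09e-05). These are low regions, in which single libraries of the series held as few as 2 and 4 reads. Both changes passed the test under each alternative setting that tested them, 18 for +34.9 kb and 19 for +40.0 kb. Their values ran from 1.75 to 2.83 and from 1.32 to 1.99, and the 46 tested neighbours within 1 Mb had a median change of 0.04.

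In the other lines these intronic regions did not pass the test. BCL2L11 +34.9 kb changed by 0.46 in SCC1 (adjusted p = 0.769) and by -0.57 in SCC25 (0.508). The SCC25 effect minus the SCC6 effect was -2.98 (adjusted p = 0.00879), while the SCC6 effect minus the SCC1 effect was 1.95 and missed the threshold (0.0871). For BCL2L11 +40.0 kb the interaction of line and treatment missed it too (0.0933). In untreated SCC25, BCL2L11 +34.9 kb read 19.2, 26.0 and 28.8 (mean 24.7 ± 4.94, SD, n = 3), beside 27.0 ± 8.08 in SCC6 after cetuximab. Among untreated lines this region was higher in SCC25 than in SCC1 by 1.71 (0.00586), a call that quantile normalization (0.95, 0.0613) and cyclic loess (0.96, 0.0754) removed. The difference was 1.06 (0.0262) without SCC1 PBS replicate 1. The peak lists, which the authors called in each library alone, gave a peak at +34.9 kb in 0 of 3 SCC6 PBS libraries and 2 of 3 SCC6 cetuximab libraries, and at +40.0 kb in 1 and 3. In SCC25 each of these regions had a peak in 2 PBS libraries and 0 cetuximab libraries. The peaks come from the same reads, and SCC6 cetuximab replicate 3 was the deepest library, with 15017130 reads in regions.

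**Figure D2:**
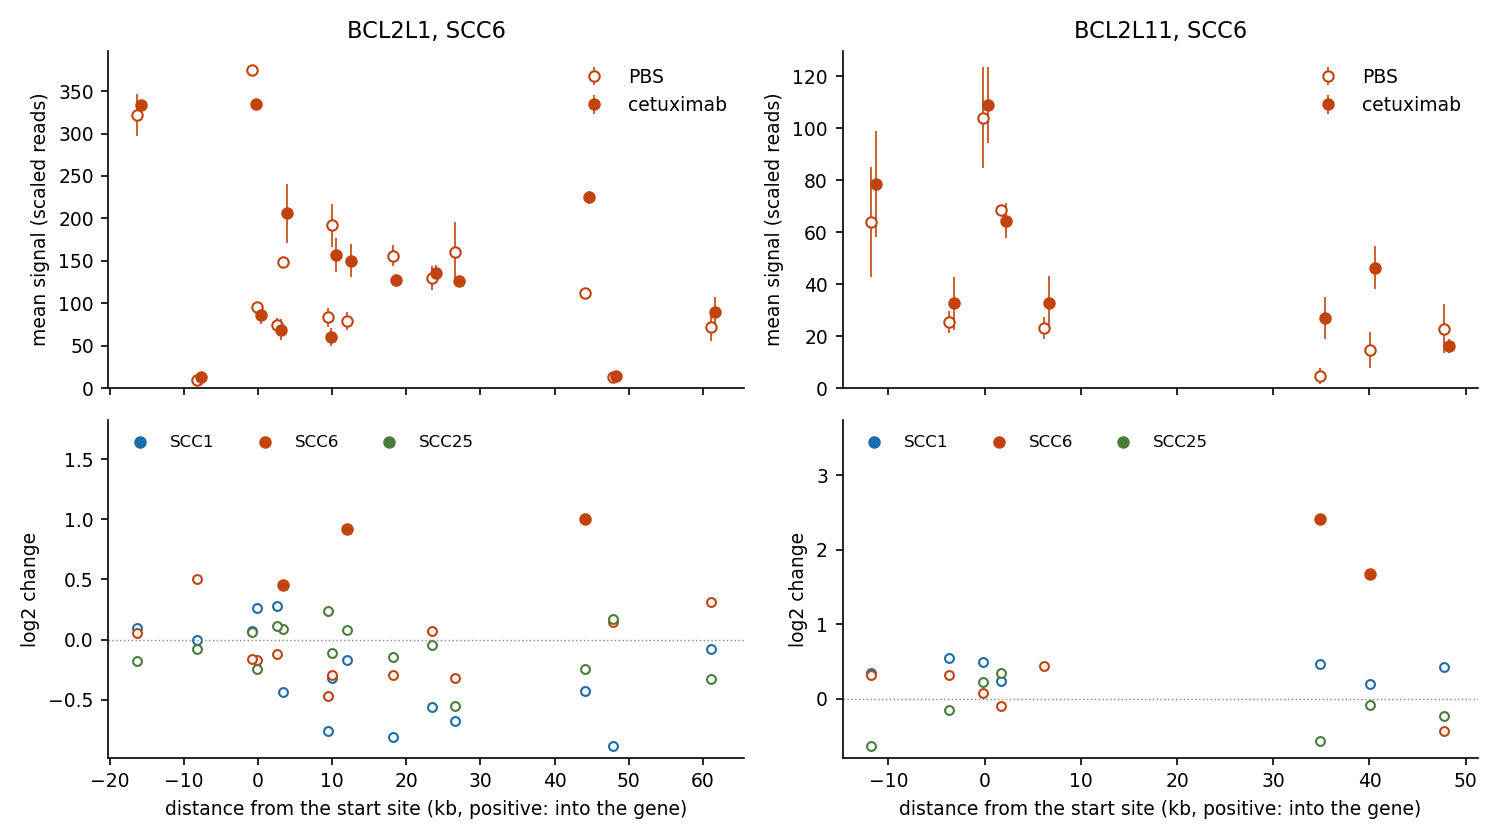
Members of BCL2L1 (left) and BCL2L11 (right) by distance from the start site in kb. The upper panels give the mean signal in SCC6 with PBS (open) and cetuximab (filled, shifted by 0.5 kb), with SD as bars and n = 3, and the lower panels give the log2 change in each line, filled where the adjusted p was under 0.05. The rises of 1.00 and 0.92 in BCL2L1 and of 2.41 and 1.67 in BCL2L11 lie inside the genes, while the SCC6 promoter values were -0.16 at BCL2L1 -0.8 kb and 0.07 at BCL2L11 -0.2 kb.

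BMF, a BH3-only protein held on the cytoskeleton until released, had members that moved in both directions in SCC6. BMF +9.9 kb rose from 68.9, 59.6 and 65.3 to 105, 130 and 104 (log2 change 0.80, SE 0.18, adjusted p = 0.000598), and this held in every alternative setting. BMF +19.9 kb, which covers exons 4 and 5, rose by 0.89 (0.00876) and BMF -9.8 kb by 0.70 (0.0407). BMF +3.9 kb fell from 21.7, 25.4 and 19.6 to 6.06, 13.9 and 6.94 (log2 change -1.30, adjusted p = 0.0135). BMF +27.0 kb, which lies past the end of the gene, had a change of -1.0 (0.0336). Thus 5 of the 9 BMF members tested in SCC6 were called, 3 of them higher and 2 lower, beside 16.9% and 10.6% of all tested regions. The filter on low signal left out the rest of the 12 BMF members in this line. With the GC trend removed the 2 lower ones had changes of -1.04 (0.136) and -0.78 (0.176).

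Single libraries carried some of these BMF calls. Leaving out SCC6 cetuximab replicate 1 or PBS replicate 2 raised the adjusted p of BMF +3.9 kb to 0.0503 and 0.0733, and leaving out cetuximab replicate 2 raised that of BMF +19.9 kb to 0.0522. BMF +27.0 kb lost its call with any of cetuximab replicate 2 (0.158), PBS replicate 1 (0.0634) and PBS replicate 2 (0.128) left out. BMF -9.8 kb lost its call with cetuximab replicate 1 (0.065), 2 (0.105) or 3 (0.077) left out, with PBS replicate 2 (0.201) or 3 (0.0818) left out, and with libraries centred on their medians (0.117).

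In SCC1 it was the BMF promoter that rose. BMF -0.1 kb read 85.9 and 130 with PBS and 206, 146 and 188 with cetuximab (log2 change 0.75, SE 0.221, adjusted p = 0.0124), and BMF +5.3 kb rose by 0.66 (0.0147). The promoter call was lost without SCC1 cetuximab replicate 1 (0.119), cetuximab replicate 3 (0.053) or PBS replicate 1 (0.46, 0.505), and the call at +5.3 kb without cetuximab replicate 1 (0.42, 0.298), cetuximab replicate 3 (0.054), PBS replicate 1 (0.151) or PBS replicate 3 (0.195). With the GC trend removed they were 0.49 (0.325) and 0.36 (0.462). BMF +5.3 kb was also higher in the fit over all lines (0.50, adjusted p = 0.0286, but 0.053 with the GC trend removed), as was MCL1 +11.3 kb (0.48, 0.03). Both had positive changes in each line. The former was lost without SCC1 PBS replicate 1 (0.0524) or 3 (0.0597), SCC6 PBS replicate 3 (0.0567), SCC6 cetuximab replicate 3 (0.0548), SCC25 PBS replicate 3 (0.059) or SCC25 cetuximab replicate 3 (0.0561). The latter was lost without SCC1 PBS replicate 1 (0.0799) or 3 (0.0511), SCC1 cetuximab replicate 1 (0.0502), SCC6 PBS replicate 2 (0.0546), SCC6 cetuximab replicate 3 (0.0584), SCC25 PBS replicate 2 (0.0539) or SCC25 cetuximab replicate 1 (0.0537).

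BBC3, a BH3-only gene induced by DNA damage, had 1 call. BBC3 +4.9 kb read 20.8 and 29.0 with PBS in SCC1 and 57.1, 44.8 and 62.6 with cetuximab (log2 change 1.11, SE 0.367, adjusted p = 0.029). It read 60.4, 60.9 and 43.5 with PBS in SCC6 and 34.3, 38.1 and 45.3 with cetuximab, a change of -0.47 (0.141), and the SCC6 effect minus the SCC1 effect was -1.58 (0.00812). The SCC6 change passed the threshold with libraries centred on their medians (-0.64, 0.0339), quantile normalization (-0.62, 0.0428) and cyclic loess (-0.61, 0.0498). The SCC1 neighbours within 1 Mb had a median change of 0.78, with 92.4% positive. The SCC1 call was lost without cetuximab replicate 1 (0.103), cetuximab replicate 3 (0.113), PBS replicate 1 (0.362) or PBS replicate 3 (0.0807), with DESeq2 (0.0554) and with the GC trend removed (0.64, 0.495).

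PMAIP1 encodes NOXA, the BH3-only partner that targets MCL1. Its promoter region did not pass the test in any line, with changes of 0.08, -0.13 and 0.12 in SCC1, SCC6 and SCC25. PMAIP1 +4.9 kb, just past the end of the short gene, read 70.3 and 52.5 with PBS in SCC1 and 19.0, 44.8 and 20.3 with cetuximab, and 25.4, 14.1 and 22.8 against 3.03, 13.0 and 11.2 in SCC6. It fell in both lines without overlap between groups, by 1.20 (adjusted p = 0.023) and by 1.26 (0.0302) on the log2 scale. It was the only member called in both, and its change in SCC25 was -0.15 (0.881). The call was lost in SCC1 without cetuximab replicate 1 (0.123), cetuximab replicate 3 (0.0807), PBS replicate 1 (0.406) or PBS replicate 3 (0.112), and in SCC6 without cetuximab replicate 1 (-0.69, 0.236), PBS replicate 1 (0.119) or PBS replicate 3 (0.103). It was also lost with DESeq2 (0.157 in SCC1 and 0.0753 in SCC6), with the GC trend removed (0.129 and 0.0594) and, in SCC1, with libraries centred on their medians (0.0619), cyclic loess (0.0554) or all libraries in 1 fit (0.0963). In the fit over all lines the change was -0.85 (0.0494), a call lost with centring (0.0618), quantile normalization (0.0852), cyclic loess (0.0859), the GC trend removed (0.0929), a pseudocount of 0.5 (0.053), no filter (0.0608), the replicate block (0.0909), no covariate for the line (0.84) or edgeR (0.0523), and without any 1 of 12 libraries (0.0565 to 0.106), these being all but SCC1 cetuximab replicate 2, SCC6 cetuximab replicate 2, SCC25 PBS replicate 2 and SCC25 cetuximab replicates 2 and 3.

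BIK, a BH3-only protein of the endoplasmic reticulum, had the steepest fall. BIK +16.9 kb, the fourth sequence, read 91.8, 72.3 and 64.2 in SCC6 with PBS and 19.2, 24.1 and 21.8 with cetuximab. The region fell by 1.75 on the log2 scale (SE 0.252, adjusted p = 3.63e-07), with values from -1.93 to -1.49 and every adjusted p at or under 0.00138 across the alternatives. A peak was called there in 3 of 3 SCC6 PBS libraries and in 0 of 3 SCC6 cetuximab libraries. BIK +16.3 kb, close upstream of it, had a change of -0.24 (adjusted p = 0.281), and the 70 tested neighbours a median of -0.1. The region changed by 0.31 in SCC1 (0.67) and by -0.19 in SCC25 (0.825), and the SCC6 effect was lower than the SCC1 effect by 2.07 on the log2 scale (difference -2.07, adjusted p = 0.00109).

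BAX, the effector that forms pores in the mitochondrial membrane, rose at its promoter in SCC1. BAX -0.1 kb read 32.5 and 45.8 with PBS and 104, 85.6 and 114 with cetuximab, so each treated library lay above each untreated one. The change was 1.36 (SE 0.29, adjusted p = 0.000246), the largest among the promoter regions of the 8 genes that had one. BAX +10.4 kb and +24.2 kb, at the start sites of FTL and GYS1, rose by 1.19 (0.0047) and 1.62 (0.00934).

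The whole BAX neighbourhood moved the same way in SCC1. The 105 tested regions within 1 Mb had a median change of 0.79, and 95.2% of them were positive. The promoter has a GC content of 68.4%, and with the GC trend of each library removed its change was 0.98 (adjusted p = 0.173). Without SCC1 PBS replicate 1 the adjusted p was 0.0713 for BAX -0.1 kb, 0.0863 for +10.4 kb and 0.337 for +24.2 kb, whose change was then 1.07. The value of +10.4 kb was 0.07 when PBS replicate 3 was left out, and that of +24.2 kb was 0.118 when cetuximab replicate 1 was and 0.0527 when cetuximab replicate 3 was. In SCC6 the promoter read 72.5, 81.6 and 65.3 with PBS and 52.5, 54.8 and 49.9 with cetuximab, a change of -0.47 that missed the threshold in limma (0.087) and passed it in edgeR (0.0416) and DESeq2 (0.0452). The effect in SCC6 minus that in SCC1 was -1.83 (adjusted p = 0.00259).

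**Figure D3:**
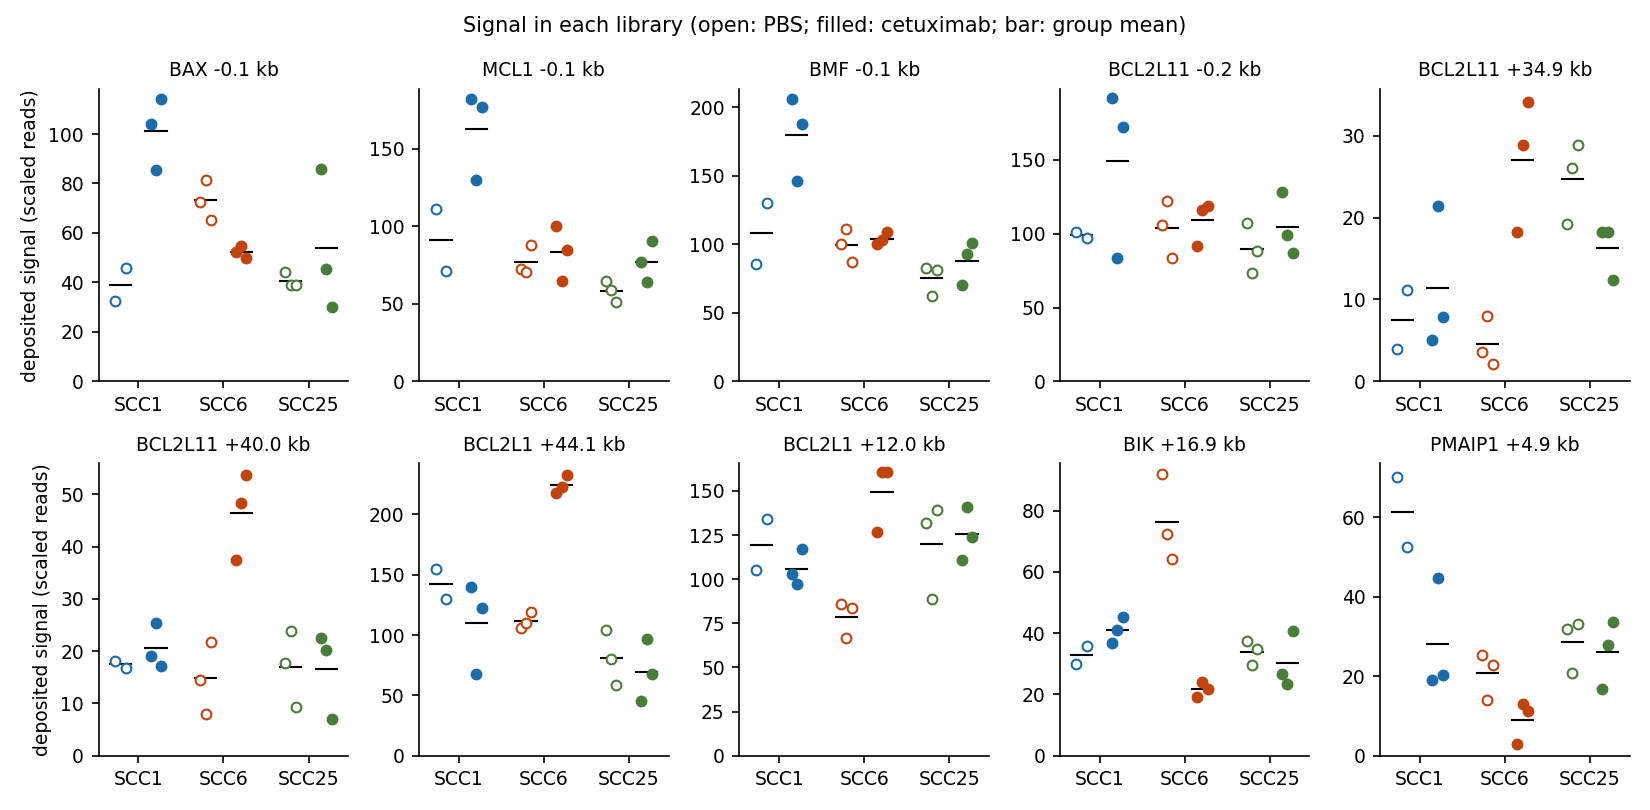
Deposited signal (scaled reads) of 10 members in each of the 17 libraries, by cell line, with PBS as open points, cetuximab as filled points and the group mean as a bar. In SCC6 the treated libraries of BIK +16.9 kb (19.2 to 24.1) lie below the untreated ones (64.2 to 91.8), and those of BCL2L1 +44.1 kb (218 to 233) lie above them (106 to 119).

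Whether the effect of cetuximab differed between the lines was tested directly. The interaction of line and treatment was called for 10 of 61 members (16.4%), against 13.2% of all tested regions, and for 6 when SCC1 PBS replicate 1 was left out. They were BIK +16.9 kb (adjusted p = 0.00159), BAX -0.1 kb (0.00687), BCL2L1 +44.1 kb (0.00869), BCL2L1 +12.0 kb, BCL2L11 +34.9 kb, BBC3 +4.9 kb, BMF +3.9 kb, BAX +10.4 kb, BAX +24.2 kb and BMF +19.9 kb. For BIK +16.9 kb, BCL2L1 +44.1 kb and BCL2L11 +34.9 kb the interaction held under each scaling, tool and left-out library.

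The number of calls that kept their side of the threshold whichever single library was left out was 6 of 13 in SCC6 and 0 of 10 in SCC1, where the untreated group had 2 libraries. The 6 were BCL2L1 +12.0 kb and +44.1 kb, BCL2L11 +34.9 kb and +40.0 kb, BIK +16.9 kb and BMF +9.9 kb.

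The untreated lines differed at many of these loci. SCC6 was higher than SCC1 at 23 members (37.7%, against 36.7% of all regions) and lower at 10 (16.4%, against 26.7%). SCC25 was higher than SCC1 at 4 (6.56%, against 33.9%) and lower at 21 (34.4%, against 24.8%). SCC25 was higher than SCC6 at 5 (8.2%, against 36.9%) and lower at 38 (62.3%, against 35.1%). The median difference of the members was 0.258, -0.25 and -0.677 in these comparisons, beside 0.123, 0.104 and 0.005 over all tested regions, and the comparisons share libraries.

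Some regions had far more signal in untreated SCC6 than in the other untreated lines. BCL2 +71.3 kb, an intronic region, read 85.8, 64.2 and 66.3 in untreated SCC6 and was at the level of 1 read in each untreated library of SCC1 and SCC25. Against a floor of 3 reads per library it was at least 19.9-fold higher in SCC6 than in SCC1 and at least 37.1-fold higher than in SCC25. BCL2L11 +6.2 kb was at least 6.44-fold higher in SCC6 than in SCC1 on the same floor. It read 27.8, 19.4 and 22.8 in untreated SCC6 and 0.754, 4.33 and 0.848 in untreated SCC25. BCL2L11 -11.8 kb read 54.4, 48.8 and 88.1 in untreated SCC6, 1.30 and 4.47 in SCC1 and 5.28, 10.8 and 13.6 in SCC25. The reverse held for BMF +31.8 kb, which lies past the end of the gene. It was at 1 read in all 3 untreated SCC6 libraries and at least 14.6-fold higher in SCC1 and 9.93-fold higher in SCC25.

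The BCL2L1 members differed in both directions. In untreated cells BCL2L1 -8.2 kb read 61.8, 67.1 and 61.9 in SCC25 against 6.04, 10.0 and 12.0 in SCC6 (log2 difference 2.69, adjusted p = 1.31e-06) and 42.9 and 13.4 in SCC1 (1.36, 0.00599). The last difference rested on which SCC1 library was kept, being 0.56 (0.0504) with PBS replicate 1 alone and 2.16 (7.03e-07) with PBS replicate 3 alone. BCL2L1 +26.6 kb was lower in SCC25 than in SCC6 by 2.36 and than in SCC1 by 1.98 on the log2 scale (differences of -2.36 and -1.98, adjusted p = 4.98e-08 and 1.13e-05). The BCL2L1 promoter itself was higher in SCC6 than in SCC1 by 1.02 (7.38e-05), and its neighbours within 1 Mb by a median of 0.65. MCL1 +27.2 kb, at the start of ADAMTSL4, was lower in SCC25 than in SCC1 (-1.71, adjusted p = 1.83e-05), and BMF +5.3 kb was lower in SCC6 than in SCC1 (-0.94, 0.00215), a call lost with the GC trend removed (0.312).

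Neighbouring regions differed between untreated lines as well. All 5 BIK members were higher in untreated SCC6 than in SCC1, with a median of 1.21, and 67 tested neighbours had a median of 1.75. The BAX and BBC3 members had medians of 0.9 and 0.87 in the same comparison, and their neighbours of 0.83 and 1.0. The BCL2L1 members had a median of -0.74 in SCC25 against SCC6, beside -0.69 for 78 neighbours, and the BMF members one of -0.67 in SCC25 against SCC1, beside -0.75. More copies of a segment and more accessibility per copy cannot be told apart from these values.

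**Figure D4:**
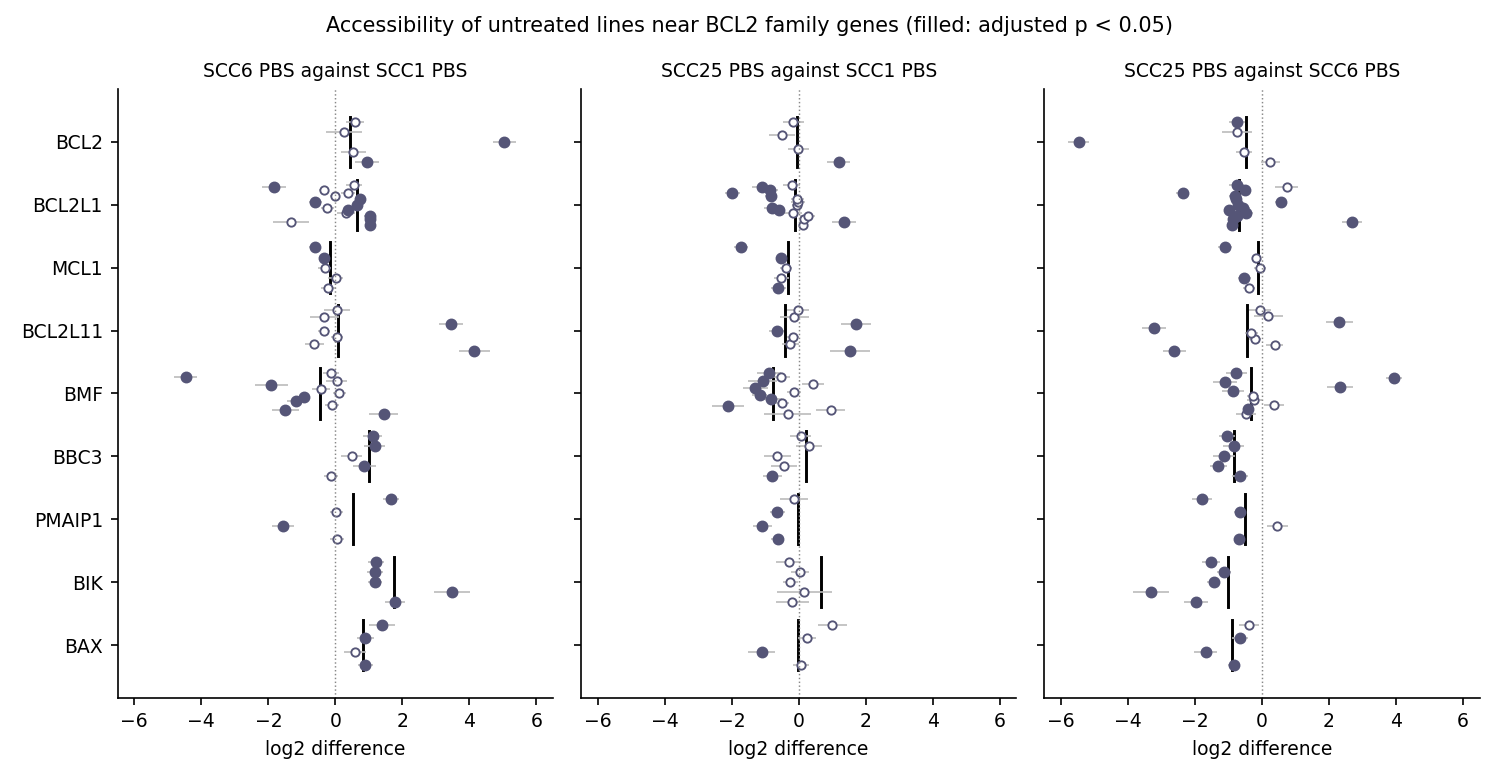
Log2 difference in signal between untreated lines for each tested member (points, with standard errors as grey lines), by gene, with filled points for an adjusted p under 0.05 and a black bar for the median of other tested regions within 1 Mb. The BIK points of SCC6 against SCC1 lie around a bar at 1.75, and the points of BCL2 +71.3 kb and BMF +31.8 kb, which rest on libraries at 1 read, stand at 5.04 and -4.47.

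Promoter regions of other genes of the pathway were read from a list of 36, of which 33 had such a region. In SCC1, 7 of 33 rose (21.2%, beside 12.6% of all promoter regions) and 0 fell. They included BAD, a BH3-only gene that shares its region with GPR137 (log2 change 0.74, adjusted p = 0.00564). In SCC6, 1 of 32 rose (3.12%, beside 5.65%) and 5 fell (15.6%, beside 10.9%). The one that rose was TP73, which encodes a transcription factor, from 7.45 ± 1.34 to 58.5 ± 5.13 (SD, n = 3), a log2 change of 2.82 (1.66e-09). BIRC3 and BIRC2, neighbouring genes for inhibitors of apoptosis, had changes of -0.57 (2.52e-12) and -0.24 (0.00147). In SCC25 the limma fit called 0 of 33. How these pathway calls stand without single libraries, with the GC trend removed or beside neighbours within 1 Mb is not given here. Over all tested regions in SCC1 the higher calls went from 3949 to 1386 with that trend removed.

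Over the 17 libraries the promoter regions whose log2 signal was most like that of BCL2L11 were those of FARP2, SPAG7 and FAM114A1, with Pearson's r of 0.881, 0.854 and 0.847 among 12377 promoter regions, a description over libraries that share lines and depth. The peak lists gave between 6 and 55 of the 63 members a peak in a library. BCL2L1 -16.3 kb and MCL1 +18.2 kb had a peak in all 17 libraries, 13 members had peaks in SCC6 only, 2 in SCC25 only and 0 in SCC1 only. Some called changes lay in regions without a peak in any library of the line. These were BAX +10.4 kb, BAX +24.2 kb and BBC3 +4.9 kb in SCC1, and BMF +3.9 kb and PMAIP1 +4.9 kb in SCC6. SCC6 cetuximab replicate 3 had both the most reads and the most members with a peak, and SCC1 cetuximab replicate 2 the fewest of each.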

How the data were processed

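ATAC-seq was performed on 18 samples, of which 17 had a column of values; SCC1 PBS replicate 2 was not analysed here. The authors trimmed reads with Trim Galore (0.5.0), aligned them to hg19 (GRCh37) with Bowtie2 (2.3.2), processed them with SAMtools (1.9) and Picard (2.18), and called peaks in each library with MACS2. They counted reads in consensus regions with DiffBind and scaled them between libraries; versions of MACS2 and DiffBind are not given in the sources used here. The deposited signal is thus reads multiplied by 1 scaling step per library, with 0 reads set to 1, and whole reads were recovered for 100% of values (tolerance 0.001). The deposited peak lists give fold enrichment as a ratio and −log10 p and q values; only peak positions and −log10 q were used.

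Regions were annotated with GENCODE 44 lifted to GRCh37. Promoter regions were those no further than 1 kb from the transcript start of any protein-coding gene. log2(signal + 1) was tested with limma 3.58.1 (R 4.3.3; trend, robust, two-sided) after the 25% of regions with the lowest mean were left out, and p-values were adjusted by the Benjamini-Hochberg method over all tested regions (threshold 0.05). A log2 change is on the log2(signal + 1) scale and understates changes of low regions. edgeR 4.0.16 and DESeq2 1.42.0 were run on recovered reads. The fits were tested on simulated data. Intervals are 95% limma intervals. Neighbours were other tested regions within 1 Mb of a gene's window.

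Named regions were each gene's strongest promoter region, up to 3 called regions per direction, line and fit whose groups did not overlap, the 3 strongest interactions, up to 2 regions per direction for each pair of untreated lines, and up to 2 pathway promoters per direction and line. BCL2L11 +34.9 kb in SCC6, BCL2L11 -11.8 kb, BIK +16.3 kb, the remaining MCL1 members and all other called regions were named after their values were seen. The result of 1 pathway promoter is not reported here. The members and lists were chosen with earlier results of these data known.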

Additional observations from a re-analysis of the deposited data

Results flagged for a closer look

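The effect of cetuximab differed between the lines, by the test of the interaction in limma with Benjamini-Hochberg adjustment over all regions, at 10 members. That was 16.4% of the 61 tested, near the 13.2% of all tested regions. The adjusted p was 0.00159 for BIK +16.9 kb, 0.00687 for BAX -0.1 kb, 0.00869 for BCL2L1 +44.1 kb, 0.0126 for BCL2L1 +12.0 kb and 0.0129 for BCL2L11 +34.9 kb. It was 0.0138 for BBC3 +4.9 kb, 0.0163 for BMF +3.9 kb, 0.0225 for BAX +10.4 kb, 0.0438 for BAX +24.2 kb and 0.0447 for BMF +19.9 kb.

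BIK +16.9 kb fell in SCC6 alone among the 3 fits, and its interaction kept an adjusted p between 2.49e-05 and 0.0379 over the alternatives. The interactions of BAX -0.1 kb (0.185), BBC3 +4.9 kb (0.286), BMF +3.9 kb (0.0934), BAX +10.4 kb (0.262) and BAX +24.2 kb (0.0598) missed the threshold once the GC trend of each library was removed. That of BCL2L1 +12.0 kb missed it with libraries centred on their medians (0.0815). Without SCC1 PBS replicate 1 the adjusted p was 0.0527 for BAX -0.1 kb. The interaction of BMF +19.9 kb was lost in 19 of 29 alternatives, with adjusted p from 0.024 to 0.149 over all of them, and that of BAX +24.2 kb in 17 of 29, from 0.0154 to 0.324. BAX +10.4 kb lost it in 5 and BMF +3.9 kb in 4.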

How the results depend on the processing

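Of 1434 values for named or called regions under alternative settings, 1198 kept their direction and side of the threshold, 211 lost the call, 13 gained one, 12 uncalled values moved, and none of the called ones reversed. Of 359 counts, 252 stayed within 1.5 times the main count. Where a count moved, the cause was not tested, apart from the threshold, window and filter settings, which change what is counted. Centring libraries on their medians shifted the median of all regions by 0.188 in SCC1 and -0.174 in SCC6.

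Of the SCC1 members 9 rose, which became 5 at an adjusted p under 0.01, 2 with the GC trend removed and 16 with a window of 50 kb. The 1 that fell became 0 at that threshold, with median centring, cyclic loess, the GC trend removed, DESeq2 or no window, 2 with a pseudocount of 5, the lowest 50% left out or all libraries in 1 fit, and 4 with 50 kb. In SCC6 the 8 higher became 5 in 1 fit and 14 with 50 kb. The 5 lower became 1 at the stricter threshold or with the GC trend removed, 13 with centring, 9 with quantile normalization or cyclic loess, 2 with the lowest 50% left out, 10 with edgeR, 3 in 1 fit or with no window and 11 with 50 kb.

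Over all lines the 2 higher became 0 at the stricter threshold, with the replicate block or without the covariate for the line, 1 with the GC trend removed and 4 with DESeq2, and the 3 lower became 0 in those first 3 settings, 1 with centring, quantile normalization or the GC trend removed and 6 with 50 kb. The 10 interactions became 3, 6 and 19 at the stricter threshold, with the GC trend removed and with 50 kb.

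Between SCC6 and SCC1 untreated, the 23 higher became 35 with the GC trend removed, 15 with DESeq2, 12 with no window and 35 with 50 kb, and the 10 lower 2, 5 and 22 with the GC trend removed, no window and 50 kb. Between SCC25 and SCC1 the 4 higher became 2 at the stricter threshold or with DESeq2, 1 with quantile normalization, cyclic loess, the lowest 50% left out or no window and 8 with 50 kb, and the 21 lower 9, 11, 13 and 34 at the stricter threshold, with the GC trend removed, no window and 50 kb. Between SCC25 and SCC6 the 5 higher became 3 with the lowest 50% left out, 2 with no window and 11 with 50 kb, and the 38 lower became 23 with no window.

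Leaving out each library in turn gave 1 to 12 higher and 0 to 2 lower in SCC1, 5 to 9 and 2 to 5 in SCC6, 0 to 0 in SCC25, 0 to 3 and 0 to 3 over all lines and 6 to 10 interactions. For the untreated lines it gave 18 to 24 and 8 to 9 between SCC6 and SCC1, 3 to 5 and 11 to 19 between SCC25 and SCC1, and 4 to 6 and 29 to 38 between SCC25 and SCC6. Where 1 library was left in a group, it was assumed to vary like the others.

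Libraries with the same replicate number did not deviate together over all regions (r from -0.042 to 0.0265). With so few libraries this cannot show whether the same number stands for a shared culture or run. Nothing states that the numbers pair libraries, so the main fits used no block. The replicate block gave 12 higher and 1 lower in SCC1 and 8 and 5 in SCC6, lost all 5 calls over all lines (adjusted p 0.0532 to 0.134) and the interaction of BMF +19.9 kb (0.138), and gained BCL2L11 -0.2 kb in SCC1 (0.86, 0.00203).

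The mean number of members with a peak fell with an overlap of 50% and a −log10 q of at least 5 from 16.3 to 5.67 and 4.33 in SCC1 cetuximab, 25.5 to 9.5 and 11.5 in SCC1 PBS, 46.0 to 37.3 and 21.7 in SCC6 cetuximab and 41.7 to 27.3 and 14.3 in SCC6 PBS, and from 30.7 to 12.3 in SCC25 PBS under the latter. With a promoter window of 3 kb, 1 pathway promoter was lower in SCC1 instead of 0. The effect of depth was not tested, and SCC1 rests on 2 untreated libraries.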
